A study of Mus musculus with 3 samples.

Results

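Cells in G2 phase and mitosis were selected from the small intestinal epithelium of mice by their own RNA levels, and 830 of 12653 cells met the rule. A member had 20 or more unique molecular identifiers (UMIs, counted RNA molecules) per 10000 UMIs of the cell summed over Ube2c, Cdc20, Ccnb1, Birc5, Cenpa, Cdca3, Top2a and Cenpf. It also had fewer than 10 UMIs per 10000 summed over Ccl9 and Reg4, genes of secretory crypt cells, and fewer than 1500 summed over the alpha-defensin (Defa) genes of Paneth cells. Of 4106 cells of AOS 0 374 were members, of 3195 cells of B + A 0 179, and of 5352 cells of B + A 10 277. Because these 8 genes chose the members, their levels are given as a description, without a test, and so is every contrast of members with cells outside the rule.

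All mice were ICR, an outbred strain, male and 3 weeks old at the start. AOS 0 mice received vehicle by gavage and no busulfan. B + A 0 mice received 1 injection of busulfan at 40 mg/kg, an alkylating drug that crosslinks DNA, and then vehicle, whereas B + A 10 mice received the same busulfan dose and then alginate oligosaccharides (AOS) at 10 mg/kg by gavage. Gavage lasted 2 weeks. Cells pooled from 6 mice of a group made its single library of 10x Genomics 3′ v2 droplet sequencing. Sets of 3 values follow the order AOS 0, then B + A 0, then B + A 10. Each group is therefore 1 library, and effects of the treatment, of the mice and of library preparation cannot be told apart. One label field names the B + A 0 and B + A 10 libraries differently from the titles, descriptions and treatment fields, and the groups follow the latter.

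The libraries differed in depth. The median cell had 7371, 6407 and 3505 UMIs, and the median member had 9601.5, 8363 and 4922, above the 7222, 6343 and 3452 of the other cells. In the member with the fewest UMIs of the rule genes these numbered 7, 8 and 5. Between AOS 0 and B + A 0 17 cell barcodes were shared, between both busulfan libraries 31, and between AOS 0 and B + A 10 34, and for 1 of these barcodes both cells were members. Among the highest 5% of doublet scores of each library were 9, 3 and 7 members. Intervals in parentheses are 95% intervals and cover counting error only, not the spread between mice or libraries.

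In the crypt, stem cells at the base divide and give rise to transit amplifying cells, which pass through several rapid divisions before they leave the cycle and become enterocytes or secretory cells. On the way into mitosis the kinase Cdk1 is switched on by B-type cyclins such as Ccnb1. The anaphase promoting complex, with its activator Cdc20 and its ubiquitin-conjugating enzyme Ube2c, then marks cyclin and securin for destruction so that sister chromatids separate. Cenpa is the histone H3 variant of the centromere, Birc5 (survivin) a subunit of the chromosomal passenger complex with Aurkb, Cdca3 a factor for mitotic entry, Top2a the topoisomerase that untangles chromatids, and Cenpf a kinetochore-associated protein.

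Genes of this phase are known for a pair of promoter elements, the cell cycle genes homology region (CHR, letters TTTGAA) and the CCAAT box (letters CCAAT), which are bound by the DREAM or MMB complex and by NF-Y. Both were searched on both strands of the RefSeq promoter windows of GRCm38.p6, from 250 bases before to 50 bases after the start, and matches of the 2 motifs were allowed to overlap. The CHR letters were found in 6 of the 8 rule genes and the CCAAT letters in 7, while 20.2% and 41.1% of the 27025 genes of the promoter table held them. Both motifs together were found in 6 rule genes and in 7.97% of all genes. Of the 15 genes outside the rule that were highest in members relative to other cells, 12 were matched, 10 of them with the CHR letters and 11 with the CCAAT letters. These matches are a description of the letters and not of binding. The 250 bases before the start are shown for the rule genes with the CHR letters before the start and for Cdk1, a leading gene outside the rule, 5′ to 3′ on the strand of the gene, with matches of either motif on either strand in capitals:
Ube2c (chr2:164769679-164769928, plus strand): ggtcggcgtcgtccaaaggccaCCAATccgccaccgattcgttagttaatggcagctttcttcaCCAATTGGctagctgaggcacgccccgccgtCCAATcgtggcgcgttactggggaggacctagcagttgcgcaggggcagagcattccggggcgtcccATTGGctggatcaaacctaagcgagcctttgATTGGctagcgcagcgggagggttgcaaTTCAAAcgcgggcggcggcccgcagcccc
Cdc20 (chr4:118437344-118437593, minus strand): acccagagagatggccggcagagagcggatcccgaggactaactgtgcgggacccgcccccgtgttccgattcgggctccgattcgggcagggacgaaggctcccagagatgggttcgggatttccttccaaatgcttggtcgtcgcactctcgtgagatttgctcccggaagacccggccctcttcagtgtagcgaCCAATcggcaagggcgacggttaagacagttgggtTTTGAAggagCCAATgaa
Top2a (chr11:99024190-99024439, minus strand): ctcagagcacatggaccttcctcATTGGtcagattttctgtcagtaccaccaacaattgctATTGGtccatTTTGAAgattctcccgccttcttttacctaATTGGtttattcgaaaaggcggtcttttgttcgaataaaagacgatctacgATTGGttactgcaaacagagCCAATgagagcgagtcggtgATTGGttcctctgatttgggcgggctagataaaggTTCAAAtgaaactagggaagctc
Cdk1 (chr10:69352913-69353162, minus strand): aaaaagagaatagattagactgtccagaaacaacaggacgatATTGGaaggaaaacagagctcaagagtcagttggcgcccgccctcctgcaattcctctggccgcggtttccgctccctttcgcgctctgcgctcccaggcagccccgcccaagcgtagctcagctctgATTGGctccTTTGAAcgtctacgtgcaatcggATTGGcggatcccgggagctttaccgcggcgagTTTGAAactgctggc

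The CHR letters of Ube2c began at position -29 and those of Cdc20 at position -18 relative to the start. In Cenpa, Cdca3 and Cenpf they lay after the start, and began at positions 16, 30 and 2. The Ccnb1 window held only the CCAAT letters and the Birc5 window neither motif.

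Members made up 9.11% (8.25% to 10.0%) of the cells without busulfan, 5.60% (4.83% to 6.46%) after busulfan and vehicle and 5.18% (4.60% to 5.80%) after busulfan and AOS. The share was lower in B + A 0 than in AOS 0 by more than counting error, the difference being -3.51 percentage points (-4.69 to -2.31). Between B + A 10 and B + A 0 it was -0.427 percentage points (-1.45 to 0.547), an interval that holds 0, and between B + A 10 and AOS 0 -3.93 percentage points (-5.01 to -2.88). AOS 0 thus stood above both busulfan libraries, and the busulfan libraries overlapped.

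**Figure D1:**
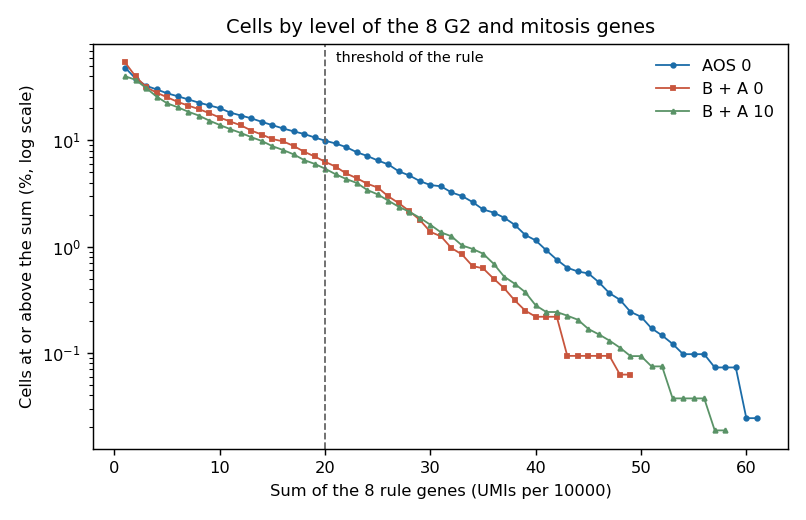
Percent of the cells of each library (y axis, log scale) at or above a given sum of the 8 rule genes in UMIs per 10000 (x axis); the dashed line marks the threshold of 20. All cells are counted, without the limits on Ccl9 and Reg4 and on the Defa genes, so values can differ from the shares of members. The AOS 0 curve runs above both busulfan curves from 10 upward. A sum of 40 is reached by 1.14% of AOS 0 cells, against 0.219% and 0.280% in the busulfan libraries.

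Because depth differed, each cell was also thinned at random to a fixed number of UMIs. With 1000 UMIs per cell, which kept every cell, the shares were 11.9%, 9.70% and 8.35%, and the difference of B + A 10 from B + A 0 was -1.35 percentage points (-2.64 to -0.105), an interval below 0. With 2000 UMIs they were 10.9%, 7.79% and 6.82%, with -0.974 percentage points (-2.15 to 0.155) between the busulfan libraries. AOS 0 kept the highest share at both depths. As a share of the crypt cells that the fixed sets define (members, dividing secretory cells, stem-like cells outside division and S phase cells), members were 37.4%, 25.9% and 25.7%. The relative number of other cells caught in each library moves with these shares, and its part in them was not tested.

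**Figure D2:**
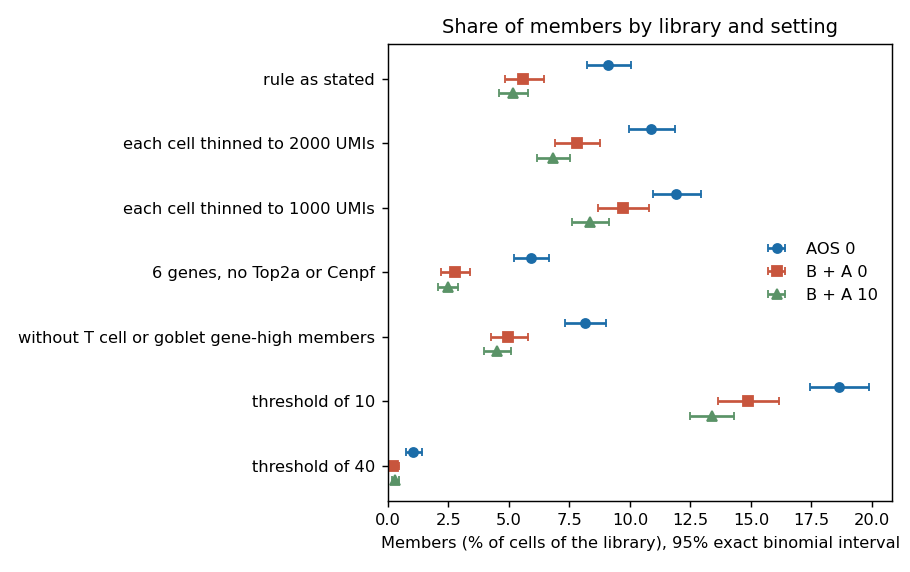
Members as a percent of the cells of each library (x axis) under the stated rule and 6 other settings (y axis), with exact binomial 95% intervals. AOS 0 lies to the right in every setting shown, from 1.05% with a threshold of 40 to 18.6% with a threshold of 10.

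The level of the 8 rule genes over whole libraries, which needs no threshold, was 651 UMIs per 1000000 UMIs, then 497 and 472. The log2 ratio was -0.39 (-0.42 to -0.36) for B + A 0 to AOS 0 and -0.08 (-0.11 to -0.04) for B + A 10 to B + A 0. The 36 genes of the S phase list, which replicate DNA in the phase before, had log2 ratios nearer 0 over whole libraries, with levels of 907, 856 and 839 UMIs per 1000000 and log2 ratios of -0.08 and -0.03. In whole libraries, fewer cells of a kind and less RNA per cell cannot be told apart.

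Within the members the summed rule genes, on which every member had passed the same threshold, stood at 2882, 2657 and 2733 UMIs per 1000000. Some single rule genes differed more, and since the rule used them their levels are described only. Ube2c and Cdc20 were lower in B + A 10 than in both other libraries, and Top2a was higher there. Birc5 and Cenpa were lowest in B + A 0. Ube2c measured 728, 680.3 and 629 UMIs per 1000000 in the members, and Cdc20 303, 281 and 225. Birc5 measured 566, 503 and 517 UMIs per 1000000, and Cenpa 292, 246 and 289. These are levels among cells that had to carry the genes, and all other cells of the 3 libraries together held 62.2 UMIs per 1000000 of Ube2c and 83.5 of Birc5. Ccnb1 measured 214, 181 and 187 UMIs per 1000000, Cdca3 197, 174 and 172 and Cenpf 174, 170.4 and 189. Top2a, whose RNA is known to be made from S phase on, stood at 410.1, 421 and 526 UMIs per 1000000.

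Most members carried the rule as a set rather than through a single gene. All 8 rule genes had a UMI in 232 of the 830 members and 7 of them in 234, while 2 members had only 2. All 8 were seen in 41.7%, 26.8% and 10.1% of members, an order that is also the order of depth. After thinning to 1000 UMIs, 49.0% of members (45.6% to 52.5%) had a Ube2c UMI, against 0.791% of 1518 villus cells, which are known not to divide. Those villus cells, defined after the data were seen by 1000 or more UMIs per 10000 of the enterocyte list, had median depths of 4857, 4777 and 2582 UMIs, and none of them reached a rule sum of 20. The threshold cut through a continuous range. Just outside it, from 15 to 20, were 155, 122 and 178 cells of the 3 libraries, and just inside, from 20 to 25, 130, 80 and 121. The G2 and mitosis genes outside the rule summed to 14192 UMIs per 1000000 in the former and 15341 in the latter, so that the neighbours of the threshold differed little.

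Genes that the rule did not name gave the same picture of late cell cycle. Of 3112 genes with at least 300 UMIs in the members, the 15 with the largest log2 ratio of members to all other cells were, in order, Aspm, Nusap1, Hmmr, Plk1, Aurkb, Cenpe, Aurka, Kif22, Ckap2l, Tpx2, Prc1, Cdca2, Kif23, Cdk1 and Spc25, and 13 of them were on the lists of G2 and mitosis genes. Their ratios ran from 2.69 to 3.41, and since the same cells chose the members they describe the choice. Cdk1, the kinase of mitotic entry, measured 263, 257 and 219 UMIs per 1000000 in members against 37.8 in all other cells. Plk1, which activates Cdk1 and builds the spindle poles, measured 113, 117 and 85.8 UMIs per 1000000. Aspm, a spindle pole protein, measured 43.9, 42.3 and 45.0 UMIs per 1000000, and Nusap1, which bundles spindle microtubules, 123, 116 and 126.

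The chromosomal passenger kinase Aurkb stood at 71.4, 60.9 and 57.4 UMIs per 1000000 and the centrosomal kinase Aurka at 89.1, 92.7 and 71.9. Tpx2, which activates Aurka, stood at 87.1, 73.4 and 68.5 UMIs per 1000000. Cenpe, the kinesin that carries chromosomes to the spindle equator, measured 77.7, 77.1 and 69.9 UMIs per 1000000, and Spc25, a subunit of the Ndc80 complex of the kinetochore, 75.7, 62.2 and 68.5. Prc1 and Kif23, both proteins of the central spindle on which cytokinesis depends, measured 118, 89.5 and 122 UMIs per 1000000 for Prc1 and 68.8, 60.3 and 57.4 for Kif23. For all 15 genes the level in members of each library lay above the level in S phase cells, which held 103 UMIs per 1000000 of Cdk1, 30.6 of Plk1 and 7.32 of Aspm. S phase cells were chosen with a sum of the rule genes below 20, so this order was partly set by the choice.

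**Figure D3:**
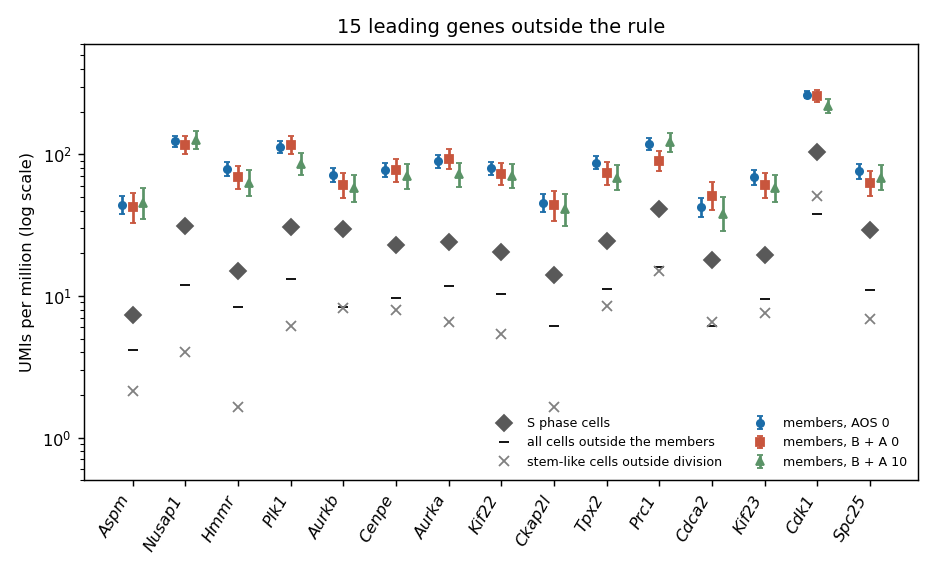
UMIs per 1000000 (y axis, log scale) of the 15 leading genes outside the rule (x axis) in members of each library, with exact Poisson 95% intervals, and in S phase cells, stem-like cells outside division and all cells outside the members. Members of all 3 libraries sit above the S phase cells for each gene, at 219 to 263 for Cdk1 against 103. The S phase cells were chosen with a sum of the rule genes below 20.

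S phase cells were held to a sum of the rule genes below 20 and stem-like cells outside division below 5, so contrasts with them describe the choice. By role, the 16 genes of mitotic entry summed to 1788 UMIs per 1000000 in members, against 802 in S phase cells and 437 in stem-like cells outside division. The kinetochore and spindle checkpoint list, 25 genes in the table, stood at 1591 UMIs per 1000000 against 909.8 and 479. The 15 genes of the anaphase promoting complex and its targets stood at 1807 UMIs per 1000000 against 1298 and 1052. That list includes subunits that all cells use, such as Anapc13, at 254 in members and 218 in all other cells, beside the securin gene Pttg1 at 333 UMIs per 1000000 and 72.7. S phase genes went the other way, with 1405 UMIs per 1000000 in members and 3297 in S phase cells, the latter chosen by that list. Pcna, the sliding clamp of replication, stood at 122 in members and 374 in S phase cells.

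The lists of cell position showed less stem cell RNA and more enterocyte progenitor RNA in members than in S phase or stem-like cells. The 23 genes of the stem cell list summed to 2918 UMIs per 1000000 in members, 4181 in S phase cells and 7153 in stem-like cells outside division, a set chosen by Olfm4 and Slc12a2. The 15 genes of the enterocyte progenitor list summed to 16603, 14171 and 13155 in the same order. The 67 dividing secretory cells, which met the same threshold on the rule genes but had 10 or more UMIs per 10000 of Ccl9 and Reg4, held 9202 UMIs per 1000000 of the progenitor list and 106187 of the goblet list, against 11227 for the goblet list in members. Their rule genes stood at 2946 UMIs per 1000000 against 2799.5 in members, and their G2 and mitosis genes outside the rule at 17782 against 16887.

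The members were not uniform, and the name transit amplifying did not hold for all of them. In 36 members (16, 5 and 15 by library) the 12 genes of the T cell list summed to 50 or more UMIs per 10000. Those cells carried 651 UMIs per 1000000 of Cd3e and 1204 of Cd3g, chains of the T cell receptor complex, and 20459.5 of Gzma, a granzyme of cytotoxic cells, against 8.23, 11.6 and 89.7 in the remaining members. Cd3e, Cd3g and Gzma are on the list that chose these cells, so their height was set by the choice. The rule genes of these cells stood at 3093 UMIs per 1000000 and their enterocyte progenitor list at 8471, against 2791 and 17218 in the remaining members. Their goblet list stood at 20288 UMIs per 1000000, against 3535 in the remaining members. A further 60 members (24, 15 and 21 in the same order) had 200 or more UMIs per 10000 of the goblet list. They were led by Tff3, a mucus peptide, at 33649 UMIs per 1000000, by Agr2, an isomerase needed for mucin folding, at 11395, and by Atoh1, the factor of the secretory fate, at 136, against 1135, 192 and 4.03 in the remaining members. Tff3 and Agr2 are on the goblet list that chose these cells, and Atoh1 is not. Of these 60 cells 10 were among the highest 5% of doublet scores, and of the 36 cells 1 was, while the remaining 734 members held 8. Both limits were set after the data were seen.

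The remaining 734 members spread along the stem cell genes. Olfm4, a marker of crypt base stem cells, was at 10 or more UMIs per 10000 in 321 of them, below 10 but present in 212 and at 0 in 201. By library, 10 or more was seen in 38.6% (33.4% to 44.1%) without busulfan, in 54.1% (46.0% to 62.0%) after busulfan and vehicle and in 44.0% (37.6% to 50.5%) after busulfan and AOS. B + A 0 stood above AOS 0 beyond counting error, and the B + A 10 interval overlapped both. Olfm4 at 0 was seen in 31.4, 16.4 and 29.0%, with median depths of 8793, 8462.5 and 5242.5 UMIs in those cells.

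Other genes followed Olfm4 within the members. In members with 10 or more UMIs per 10000 of Olfm4 against those with none, Sox9, a factor of crypt progenitors, measured 157 against 13.7, a log2 ratio of 3.52 (2.90 to 4.21). Cd44, a target of Wnt signalling, measured 164 UMIs per 1000000 against 13.7, a log2 ratio of 3.58 (2.97 to 4.27), and Slc12a2, a chloride cotransporter of the crypt base, 684 against 60.5, a log2 ratio of 3.50 (3.20 to 3.81). Axin2, a feedback inhibitor of Wnt signalling, and Cdk6, a kinase of cell cycle entry, had log2 ratios of 2.65 and 2.69. Each of these 5 was higher with Olfm4 in the members of all 3 libraries. Lgr5, the receptor that marks crypt base stem cells, stood at 36.5 UMIs per 1000000 with Olfm4 at 10 or more, 2.09 with Olfm4 below 10 and 0.624 with Olfm4 at 0.

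Other genes were higher in members without Olfm4. Apol10a measured 13.8 UMIs per 1000000 against 203, a log2 ratio of -3.88 (-4.41 to -3.38). Arg2, the mitochondrial arginase, measured 29.5 UMIs per 1000000 against 229, a log2 ratio of -2.96 (-3.33 to -2.60), and Anxa13, an annexin of intestinal epithelium, 26.8 against 205, a log2 ratio of -2.93 (-3.32 to -2.56). Reg1, a secreted lectin-like protein, measured 59.3 UMIs per 1000000 against 394, a log2 ratio of -2.73 (-2.99 to -2.48). Krt19, a keratin of simple epithelia, measured 1083 UMIs per 1000000 with Olfm4 at 10 or more, 2358 with Olfm4 below 10 and 3195 at 0. The enterocyte progenitor list stood at 11896, 18923 and 24084 UMIs per 1000000 over these steps and the stem cell list, which includes Olfm4, at 6151, 1183 and 374. The rule genes were nearly level, at 2696, 2824 and 2909 UMIs per 1000000, whereas the S phase list stood at 1682, 1310.5 and 1021 and the G2 checkpoint list at 362, 537 and 572. The split on Olfm4 was made after the data were seen and the genes named were chosen by their ratios, so these values describe the members.

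**Figure D4:**
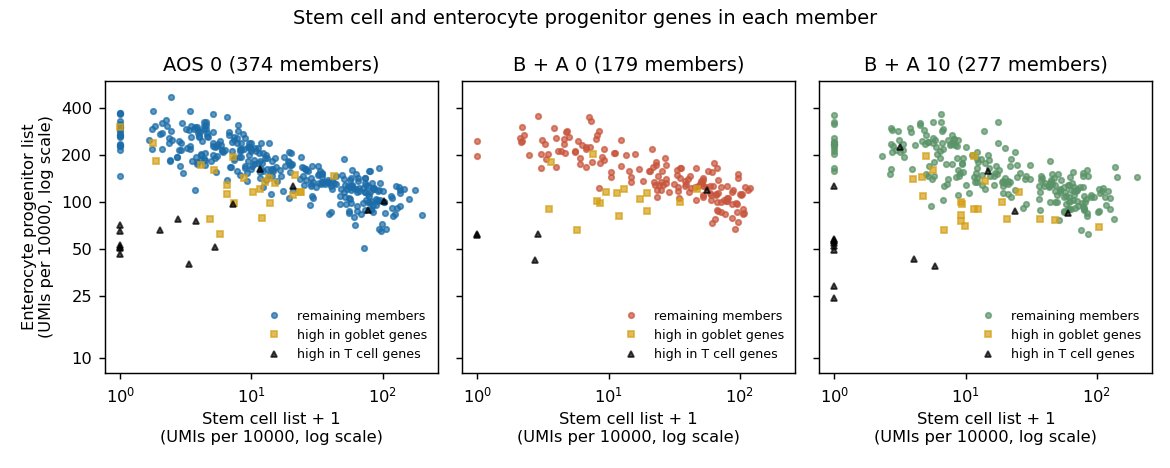
Each point is 1 member, with the stem cell list plus 1 on the x axis and the enterocyte progenitor list on the y axis, both in UMIs per 10000 on log scales, in 1 panel per library (374, 179 and 277 members). In each library the remaining members run from high progenitor and low stem values to the reverse, and most members high in T cell genes (black) lie below them.

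Members with stronger rule genes were few. A sum of 40 or more was reached by 43, 7 and 15 members, which is 11.5% (8.45% to 15.2%), 3.91% (1.59% to 7.89%) and 5.42% (3.06% to 8.77%) of members. No member reached 80, and the highest sums were 61.6, 49.7 and 58.1 UMIs per 10000, those of AOS 0 and B + A 10 in members high in T cell genes. Of the 43, 7 and 15 members 3, 0 and 4 were high in T cell genes and 3, 2 and 2 in goblet genes. The T cell list stood at 1061 UMIs per 1000000 from 20 to 40 and at 2009 from 40 on. From 20 to 40 on to 40 and over, the mitotic entry list went from 1745 to 2408 UMIs per 1000000, the kinetochore list from 1556 to 2090.0 and the S phase list from 1431 to 1029. The stem cell list was at 2922 and 2853 UMIs per 1000000. The part of the members high in T cell or goblet genes in these values was not tested.

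Between libraries the summed levels of mitosis genes in the members differed little. All members had passed the same threshold on the rule genes, which limits how far other genes of mitosis can differ. The small differences were therefore partly set by the choice of members. Where 2 log2 ratios follow each other, the first sets B + A 0 over AOS 0 and the second B + A 10 over B + A 0. The 106 G2 and mitosis genes outside the rule summed to 17486, 16351 and 15848 UMIs per 1000000 in members. The log2 ratio was -0.10 (-0.12 to -0.08), against -0.10 in all other cells, for B + A 0 to AOS 0 and -0.05 (-0.07 to -0.02), against 0.01 in all other cells, for B + A 10 to B + A 0. With a threshold of 40 in place of 20, the second ratio was 0.076. Over all genes compared the median log2 ratio in members was -0.06 and -0.03, and over the genes of this list -0.13 and -0.04. Mitotic entry genes gave log2 ratios of -0.08 (-0.14 to -0.01) and -0.12 (-0.20 to -0.04), and the chromosome condensation list, led by histone variants and Hmgb2, -0.15 (-0.18 to -0.12) and -0.04, the latter with an interval that reaches 0. Pttg1, securin, was at 382, 289.8 and 248 UMIs per 1000000, with log2 ratios of -0.40 (-0.55 to -0.25) and -0.23 (-0.43 to -0.02), against -0.08 and -0.20 in all other cells.

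Single genes of the mitotic lists past 2-fold were about as few as among all genes, so their counts are no result about the lists. For B + A 0 to AOS 0, 1 of 101 list genes with at least 50 UMIs in both libraries together was 2-fold or more higher in members and 0 lower, where 0.746% of all 7637 genes compared were higher by as much and 0.681% lower. For B + A 10 to B + A 0 the counts were 0 and 1 of 93, beside 0.338% and 0.372% of 5914 genes, and for B + A 10 to AOS 0 0 and 1 of 100, beside 1.08% and 1.28% of 7593 genes. The gene past 2-fold in the first was Stmn1, which destabilizes microtubules, at 166, 357 and 309 UMIs per 1000000 and a log2 ratio of 1.10 (0.94 to 1.27), against 0.91 in all other cells. Kifc1, a kinesin that focuses spindle poles, was the gene lower in B + A 10 than in B + A 0, at 32.8, 41.7 and 20.1 UMIs per 1000000 with a log2 ratio of -1.05 (-1.74 to -0.41). Kif18a, a kinesin of chromosome alignment, was the gene lower in B + A 10 than in AOS 0, at 14.7, 11.2 and 6.92 UMIs per 1000000 with a log2 ratio of -1.09 (-2.22 to -0.11) from 10 UMIs in B + A 10.

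Among the 15 leading genes the ratio of B + A 0 to AOS 0 had an interval without 0 for Prc1 alone, at -0.40 (-0.68 to -0.13), and Prc1 stood at 0.44 (0.12 to 0.77) for B + A 10 to B + A 0. Plk1 and Cdk1 were lower in B + A 10 than in B + A 0, with log2 ratios of -0.45 (-0.79 to -0.11) and -0.23 (-0.45 to -0.02).

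Genes of the neighbouring phases differed as little between libraries. The S phase list in members was at 1423, 1411 and 1349 UMIs per 1000000, with log2 ratios of -0.01 (-0.08 to 0.06) and -0.06 (-0.15 to 0.02). The second was 0.43 with a threshold of 40, and the first 0.077 with members chosen after thinning to 1000 UMIs. The G1 entry list, with the D-type cyclins, was at 1126, 1194 and 1187 UMIs per 1000000 and gave log2 ratios of 0.08 (0.01 to 0.16) and -0.01 (-0.10 to 0.09). Cdkn2c, an inhibitor of the cyclin D kinases, was its gene past 2-fold, at 20.8, 7.46 and 16.6 UMIs per 1000000 with a log2 ratio of -1.48 (-2.49 to -0.60) for B + A 0 to AOS 0, from 82 and 12 UMIs.

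The stem cell list was highest in the members of B + A 0. It summed to 2856, 3191 and 2781 UMIs per 1000000, with log2 ratios of 0.16 (0.11 to 0.21), against 0.08 in all other cells, for B + A 0 to AOS 0 and -0.20 (-0.26 to -0.14), against -0.08 in all other cells, for B + A 10 to B + A 0. Olfm4 itself was at 1470.2, 1651 and 1380 UMIs per 1000000, with log2 ratios of 0.17 (0.10 to 0.23) and -0.26 (-0.34 to -0.17). Clca3b, also of the list, was at 326, 321 and 266 UMIs per 1000000 and gave log2 ratios of -0.02 (-0.17 to 0.13) and -0.28 (-0.47 to -0.08). The median member held 11.1, 24.1 and 14.1 UMIs per 10000 of the list, within ranges that ran from 0 to 199, 119 and 202, so the libraries overlapped over nearly their whole range, and the median of all other cells was 2.77, 3.74 and 3.49. Notch and fate factors were at 368, 449.6 and 374 UMIs per 1000000, with log2 ratios of 0.29 (0.16 to 0.42) and -0.27 (-0.43 to -0.10), and Notch2, a receptor of the pathway, was at 10.7, 23.0 and 18.0 UMIs per 1000000, 2-fold or more higher in B + A 0 than in AOS 0, with a log2 ratio of 1.11 (0.43 to 1.78). The enterocyte progenitor list was at 17422, 15521 and 15574 UMIs per 1000000, with log2 ratios of -0.17 (-0.19 to -0.15), against -0.30 in all other cells, and then 0.0049 (-0.02 to 0.03), against 0.13 in all other cells.

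Busulfan crosslinks DNA, and dividing cells with unrepaired crosslinks are known to stop at the G2 checkpoint and to switch on p53 targets. None of the 3 lists drawn up for this was higher in the members of either busulfan library than in those of AOS 0. Members had to pass the threshold on the rule genes, so a cell that had stopped with these genes low was left out. Cells were also taken only after the weeks of gavage that followed the injection. Whether cells had stopped earlier or outside the members was not tested, and these ratios cannot show it. With a threshold of 40, crosslink repair had a log2 ratio of B + A 0 to AOS 0 of 0.43. Without members high in T cell or goblet genes, the same ratio of the G2 checkpoint list was 0.005 (-0.13 to 0.14). The G2 checkpoint list was not recomputed under the remaining settings. The 25 p53 targets summed to 2161, 2025 and 2028 UMIs per 1000000, with log2 ratios of -0.09 (-0.15 to -0.04) for B + A 0 to AOS 0 and 0.002 (-0.07 to 0.07) for B + A 10 to B + A 0. Rps27l, a ribosomal protein paralog that p53 induces, was at 1618, 1573 and 1602 UMIs per 1000000. It alone made up most of the list's sum, which therefore says little about the other targets. Bax, an effector of apoptosis, was at 158, 139.9 and 138 UMIs per 1000000. Perp, a desmosomal p53 target, was at 105, 83.9 and 61.6 UMIs per 1000000, with log2 ratios of -0.32 (-0.62 to -0.04) and -0.45 (-0.85 to -0.05). Cdkn1a (p21), the inhibitor by which p53 halts the cycle, was at 44.4, 28.6 and 27.7 UMIs per 1000000 in members and 158 in all other cells, and in members gave a log2 ratio of -0.64 (-1.14 to -0.16) for B + A 0 to AOS 0 from 175 and 46 UMIs, against -0.51 in all other cells. It is named here after its values were seen.

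The G2 checkpoint list, 14 genes in the table, was at 461, 448 and 446 UMIs per 1000000, with log2 ratios of -0.04 (-0.17 to 0.09) and -0.01 (-0.16 to 0.15). Sfn (14-3-3 sigma), which holds Cdk1 in the cytoplasm, was at 269, 261 and 265 UMIs per 1000000. It alone made up most of the list's sum in each library. Wee1, which phosphorylates Cdk1, was at 25.9, 27.4 and 35.3 UMIs per 1000000. The 32 genes of crosslink repair, with the Fanconi anaemia pathway, were at 388, 372 and 354 UMIs per 1000000, with log2 ratios of -0.06 (-0.20 to 0.08) and -0.07 (-0.24 to 0.10). Usp1, which removes ubiquitin from Fancd2, was at 95.5, 77.7 and 94.8 UMIs per 1000000. Few genes of these 3 lists had at least 50 UMIs in both libraries together, namely 11 p53 targets, 8 checkpoint genes and 11 repair genes for B + A 0 to AOS 0 and 8, 5 and 5 in the same order for B + A 10 to B + A 0. None of them was 2-fold or more different, a count close to the shares of all genes given above and so no result about the lists. Members held more of the repair list than other cells, at 377 against 164 UMIs per 1000000, close to the 437 of S phase cells.

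Larger ratios were those of lists of other cell types. The Paneth list in members was at 919.7, 2148 and 1297 UMIs per 1000000, with log2 ratios of 1.22 (1.16 to 1.29), against 1.14 in all other cells, and then -0.73 (-0.81 to -0.65), against -0.91 in all other cells. Of its 9 genes compared 7 were 2-fold or more higher in B + A 0 than in AOS 0, beside 0.746% of all 7637 genes. In B + A 10, 5 were lower by as much than in B + A 0, beside 0.372% of 5914 genes. Defa5, Defa30 and Defa35, which are among the 7, also belong to the Defa sum that the rule limits. Lyz1, lysozyme of Paneth cells, was at 185, 534 and 256 UMIs per 1000000, and Ang4, a secreted ribonuclease, at 86.8, 216 and 92.0. The goblet list was at 9254, 13824 and 13712 UMIs per 1000000, with log2 ratios of 0.58 (0.55 to 0.60), against 0.19 in all other cells, and -0.01 (-0.04 to 0.02), against -0.07 in all other cells, and the enterocyte list at 3701, 5616 and 5680.5, with log2 ratios of 0.60 (0.56 to 0.64), against -0.19 in all other cells, and 0.02 (-0.03 to 0.06), against 0.22 in all other cells. Apoa1 and Apoa4, apolipoproteins of absorbing enterocytes, were at 477, 1140.5 and 1148 UMIs per 1000000 for Apoa1 and 101, 280.5 and 333 for Apoa4.

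The floor of such RNA differed between libraries in the same cells. The member with the least of the goblet list held 7.32, 29.5 and 22.8 UMIs per 10000, and the median member 20.5, 56.2 and 49.8, where the median of all other cells was 33.5, 76.8 and 68.5. For the Paneth list the median member held 6.50, 16.6 and 9.10 and for the enterocyte list 31.9, 52.99 and 51.4. The T cell list was at 0 in 50, 10.1 and 22.4% of members. Without the 96 members high in T cell or goblet genes, the log2 ratio of B + A 0 to AOS 0 was 1.19 for the goblet list, 2.06 for the T cell list and 1.32 for the Paneth list, against 0.58, 0.38 and 1.22 with them. The part of this floor in the ratios of the lists was not tested.

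The T cell list was at 905, 1175 and 1661 UMIs per 1000000 in members, with log2 ratios of 0.38 (0.30 to 0.46), against 0.25 in all other cells, and 0.50 (0.41 to 0.59), against 0.50 in all other cells. The first of these ratios was -0.18 as a mean of per-cell values and -0.45 with members chosen after thinning to 1000 UMIs, so its sign depended on the setting. Cd3e was at 19.0, 21.8 and 54.0 UMIs per 1000000 and was 2-fold or more higher in B + A 10 than in B + A 0, with a log2 ratio of 1.31 (0.72 to 1.93) from 35 and 78 UMIs. The members high in T cell genes were 4.28, 2.79 and 5.42% of members, with intervals of 2.46% to 6.85%, 0.913% to 6.40% and 3.06% to 8.77% that overlapped. Without them and the goblet-high members the T cell list gave a log2 ratio of 0.13 for B + A 10 to B + A 0. Enteroendocrine genes were at 97.8, 175 and 169 UMIs per 1000000 in members, from 385, 282 and 244 UMIs, with log2 ratios of 0.84 (0.62 to 1.07), against -0.07 in all other cells, and -0.06 (-0.31 to 0.20), against 0.16 in all other cells. Myeloid genes were at 17.8, 14.9 and 22.8 UMIs per 1000000, B and plasma cell genes at 16.0, 3.11 and 3.46, stromal and endothelial genes at 5.84, 10.6 and 6.23, tuft cell genes at 4.06, 8.08 and 6.23 and erythroid genes at 2.29, 1.87 and 1.38. Col1a1, a defining marker of fibroblasts, was at 0 in the members of all libraries, and Cd79a, of B cells, at 0 in those of both busulfan libraries, while 32 of its 34 UMIs in AOS 0 came from 1 member.

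Stress and defence genes differed in members and in other cells. The heat shock and immediate early list was at 5524, 7226 and 6944 UMIs per 1000000, with log2 ratios of 0.39 (0.35 to 0.42), against 0.22 in all other cells, and -0.06 (-0.10 to -0.02), against 0.10 in all other cells. Hspa8, the constitutive Hsp70 chaperone, was at 1074, 1914 and 1961 UMIs per 1000000, Hsp90aa1 at 1173, 1704 and 1546, and Hspa1b, the inducible Hsp70, at 37.3, 103 and 118. All 3 were lower in AOS 0 than in both busulfan libraries, whose levels differed less from each other. Interferon and antigen presentation genes were at 9068, 7711 and 8258 UMIs per 1000000, with log2 ratios of -0.23 (-0.26 to -0.20), against -0.43 in all other cells, and 0.10 (0.06 to 0.14), against 0.36 in all other cells. Cd74, the invariant chain of MHC class II, was at 1262, 833 and 936 UMIs per 1000000. The unfolded protein response list gave log2 ratios of 0.06 (0.02 to 0.10) and -0.03 (-0.08 to 0.02), and the redox list -0.08 (-0.10 to -0.05) and -0.11 (-0.14 to -0.08).

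**Figure D5:**
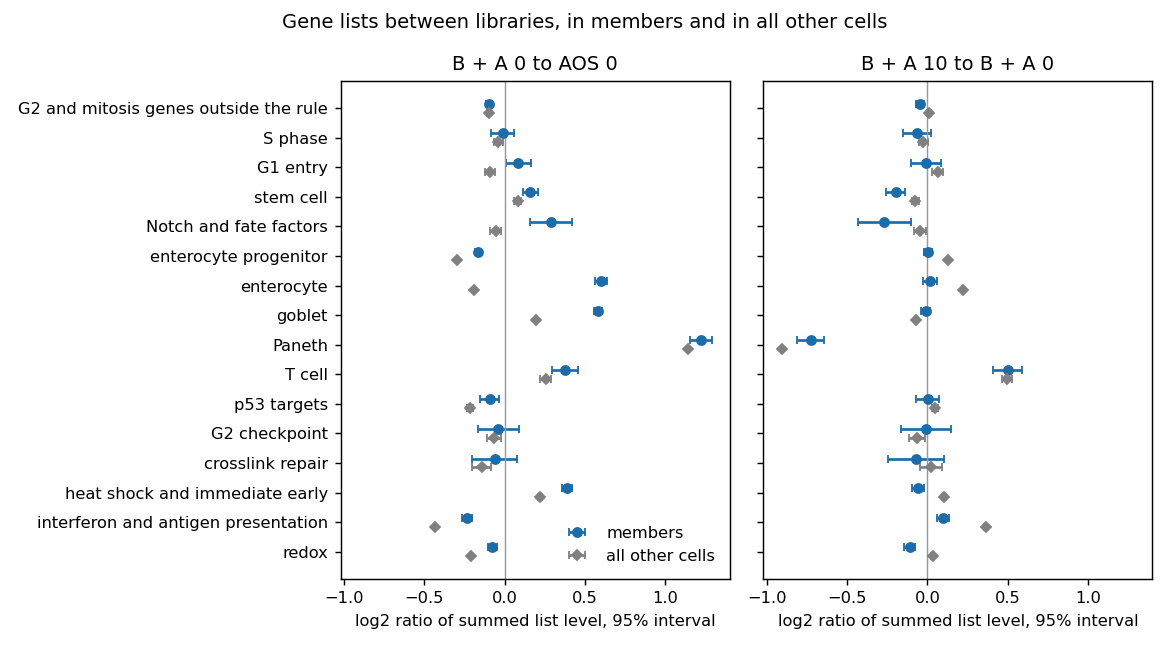
log2 ratio of the summed level of each gene list (x axis) between libraries, in members (circles) and in all other cells (diamonds), with 95% counting intervals, for B + A 0 to AOS 0 (left) and B + A 10 to B + A 0 (right). In members the lists of G2 and mitosis, S phase, p53 targets, G2 checkpoint and crosslink repair lie within 0.10 of 0 in both panels. The Paneth list lies at 1.22 and -0.73. All members passed the same threshold on the rule genes, which limits how far the G2 and mitosis list can differ.

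Across all genes, 57 of 7637 were 2-fold or more higher in members of B + A 0 than of AOS 0 and 52 lower, and of these 17 and 4 also passed 2-fold in all other cells. For B + A 10 to B + A 0 there were 20 higher and 22 lower of 5914, with 4 and 5 also past it in other cells, and for B + A 10 to AOS 0 82 and 97 of 7593, with 27 and 7. Hist1h2ao, a replication-dependent histone H2A gene with near-identical copies between which reads are uncertain, had the largest ratio of B + A 0 to AOS 0 among the 5677 of these genes with at least 100 UMIs. It was at 66.8, 575 and 428 UMIs per 1000000, with a log2 ratio of 3.11 (2.91 to 3.31), against 2.98 in all other cells. Gstp1, a glutathione transferase with close copies, was at 56.1, 201 and 182 UMIs per 1000000, with a log2 ratio of 1.84 (1.59 to 2.10), against 1.76 in all other cells. St6galnac1, which caps mucin sugars with sialic acid, had 149 UMIs in 68 members of AOS 0 and 0 in those of both busulfan libraries. With the 0 set to 3 counts its log2 ratio of B + A 0 to AOS 0 was -4.34, and its interval ended at -4.03. In all other cells the ratio was -5.80.

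Mptx1, a mucosal pentraxin, was at 103, 344 and 87.8 UMIs per 1000000, with a log2 ratio of 1.75 (1.56 to 1.93), against 0.03 in all other cells, and 243 of its 553 UMIs in B + A 0 were in 1 member. Of the other genes among the 8 with the largest ratio of B + A 0 to AOS 0, Defa17 is a defensin gene with near-identical copies, Lyz1 is lysozyme, Clps is the colipase of the pancreas and Mep1b a brush border protease of enterocytes, while AY761184 is named only. At the lower end the genes after St6galnac1 were Tbc1d23, Fam63b, Steap2, Fcho2, Zmym5, Trappc3 and Ovol2. Their log2 ratios ran from -1.29 to -1.04 in members and from -0.60 to -0.24 in all other cells. Trappc3, a subunit of a vesicle tethering complex, rested on 186 and 36 UMIs and Tbc1d23 on 90 and 15.

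From B + A 0 to B + A 10, among 3768 genes with at least 100 UMIs, the largest ratio was that of Ghrl, the hormone ghrelin of enteroendocrine cells, at 6.35, 4.97 and 64.3 UMIs per 1000000 and a log2 ratio of 3.69 (2.65 to 4.95), against 2.98 in all other cells. Of its 93 UMIs in the members of B + A 10, 62 were in 1 member. Ifi27l2b, an interferon-inducible gene, was at 387, 188 and 834 UMIs per 1000000, with a log2 ratio of 2.15 (1.964 to 2.33), against 2.32 in all other cells. It was thus lowest in B + A 0, in the members as in the other cells. Cd3e, Cd3g, Ccl5, a chemokine of T cells, and Clec2d followed, with ratios in members from 1.08 to 1.31, and then Hyou1, a chaperone of the endoplasmic reticulum, and Ankra2. The lowest ratios were those of Mptx1, Pyy, Mptx2, Clps, Ang4, Pex2, Lyz1 and Lgals1, from -1.97 to -1.04. Pyy, the hormone peptide YY, was at 3.55, 51.6 and 13.8 UMIs per 1000000 in members, with a log2 ratio of -1.90 (-2.68 to -1.18), against 0.70 in all other cells, and 60 of its 83 UMIs in B + A 0 were in 1 member. For Lgals1, a galectin, 42 of 80 UMIs in B + A 0 were in 1 member.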

How the data were processed

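Droplet single-cell RNA sequencing of small intestinal cells gave 1 library per group. The authors deposited, for 13891 genes and 12653 cells, natural log values (1 was added to a gene's UMIs per 10000 of the cell before taking the log), after Cell Ranger 2.2.0 on mm10, removal of sparse cells and genes, and log-normalization in Seurat. The paper states that Cell Ranger was run with a forced number of cells, and the part of this setting in the shares was not tested. Here each value was turned back into UMIs, and 100% of the 24333763 values above 0 lay within 0.01 of a whole UMI. The tests had been planned without a count model, and none was run since each group is 1 library.

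Members followed the stated rule, and UMIs were summed over the members of a library and scaled to 1000000. The sets compared were dividing secretory cells (67 cells), stem-like cells outside division (762), S phase cells (1577) and all 11823 cells outside the members. Members and gene lists were chosen with earlier results of these data known. Percentages have exact binomial (Clopper-Pearson), levels exact Poisson, differences Newcombe and log2 ratios exact binomial intervals at 95%, and a count of 0 was set to 3 for a ratio. Named genes were the 8 rule genes, the 15 leading genes with at least 300 UMIs, list genes among the 3 highest of their list or past 2-fold, and the 8 largest and 8 smallest ratios between B + A 0 and AOS 0 and between B + A 10 and B + A 0, among genes with at least 100 UMIs. Other genes named (those compared by Olfm4, and Cdkn1a, Lgr5, Krt19, Atoh1, Cd79a, Col1a1, Pttg1 and Pcna where outside this rule) were named after their values were seen. The splits of members by T cell genes, goblet genes and Olfm4 were made after the data were seen. Doublet scores were from Scrublet in scanpy 1.11.5, whose highest 5% per library were left out as an alternative. Scripts were tested on simulated data and used Python 3.11.15, numpy 2.4.6, scipy 1.17.1 and pandas 2.3.3. Promoters are from RefSeq (GRCm38.p6). The libraries held 35258551, 26044381 and 23003083 UMIs, and precision follows the UMIs summed. Values of 1 gene are not reported here.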

Additional observations from a re-analysis of the deposited data

How the results depend on the processing

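Of 330 values recomputed under other settings, 194 kept their sign and lay within the counting interval of the stated value (counts of genes within 1.5 times), 111 kept it and lay outside, and 25 changed sign. Of 30 recomputed differences in share 29 were below 0, and that of B + A 10 from B + A 0 with a threshold of 40 was 0.061 percentage points. For 18 of the 25 the stated interval already held 0, and these were in that share and in the S phase, stem cell, goblet, p53 target, crosslink repair and enterocyte progenitor lists. The other 7 were in the T cell list (B + A 0 to AOS 0), the S phase list (B + A 10 to AOS 0) and, with a threshold of 40 alone, the G2 and mitosis list. Their cause was not tested. The 2 scalings shift all genes by at most 0.09 on the log2 scale. No paired analysis was possible because each group is 1 library. Counting error is the only error these data hold, so the spread between mice, lanes and days is not known, and depth limits genes under 50 UMIs.

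With a threshold of 10, the differences in share were -1.49 percentage points for B + A 10 minus B + A 0 and -5.25 percentage points for B + A 10 minus AOS 0. In the same members log2 ratios of B + A 0 to AOS 0 were -0.25 for enterocyte progenitor, 0.41 for goblet, 1.08 for Paneth and 0.34 for enterocyte, those of B + A 10 to B + A 0 0.36 for T cell, -0.32 for goblet and 0.085 for enterocyte, and those of B + A 10 to AOS 0 -0.23 for enterocyte progenitor, 0.78 for T cell, 0.096 for goblet, 0.33 for Paneth and 0.43 for enterocyte. With a threshold of 40, which leaves 43, 7 and 15 members, the differences in share were -0.828 percentage points for B + A 0 minus AOS 0 and -0.767 percentage points for B + A 10 minus AOS 0. In the same members log2 ratios of B + A 0 to AOS 0 were -0.067 for G2 and mitosis, -0.11 for S phase, 0.081 for stem cell, -0.25 for enterocyte progenitor, 0.43 for crosslink repair, -1.62 for T cell, 0.99 for goblet, 0.93 for Paneth and 0.20 for enterocyte, those of B + A 10 to B + A 0 0.076 for G2 and mitosis, 0.43 for S phase, -0.37 for stem cell, -0.58 for crosslink repair, 4.50 for T cell, 0.24 for goblet and -0.034 for Paneth, and those of B + A 10 to AOS 0 0.0096 for G2 and mitosis, 0.31 for S phase, -0.29 for stem cell, -0.23 for enterocyte progenitor, 2.88 for T cell, 1.23 for goblet, 0.89 for Paneth and 0.22 for enterocyte. There the genes 2-fold or more different were 21 higher for B + A 0 to AOS 0, 10 higher for B + A 10 to B + A 0, 2 lower for B + A 10 to B + A 0 and 30 higher for B + A 10 to AOS 0. With cells thinned to 1000 UMIs, the differences in share were -2.21 percentage points for B + A 0 minus AOS 0. With crypt cells as the denominator, the differences in share were -11.5 percentage points for B + A 0 minus AOS 0 and -11.7 percentage points for B + A 10 minus AOS 0. With members chosen after thinning to 1000 UMIs, log2 ratios of B + A 0 to AOS 0 were -0.16 for G2 and mitosis, 0.077 for S phase, -0.21 for enterocyte progenitor, -0.45 for T cell, 0.54 for goblet, 0.91 for Paneth and 0.33 for enterocyte, those of B + A 10 to B + A 0 0.89 for T cell, -0.60 for Paneth and 0.17 for enterocyte, and those of B + A 10 to AOS 0 -0.21 for G2 and mitosis, -0.21 for enterocyte progenitor, 0.44 for T cell, 0.50 for goblet, 0.31 for Paneth and 0.50 for enterocyte. There the genes 2-fold or more different were 33 higher for B + A 10 to B + A 0. As the mean of per-cell values, log2 ratios of B + A 0 to AOS 0 were -0.12 for G2 and mitosis, 0.24 for stem cell, -0.18 for T cell, 0.73 for goblet and 0.55 for enterocyte, those of B + A 10 to B + A 0 0.78 for T cell, -0.096 for goblet and -0.82 for Paneth, and those of B + A 10 to AOS 0 0.061 for stem cell, 0.60 for T cell, 0.63 for goblet and 0.36 for Paneth. Scaled by the median of ratios over genes, log2 ratios of B + A 0 to AOS 0 were -0.037 for G2 and mitosis, 0.22 for stem cell, -0.11 for enterocyte progenitor, -0.034 for p53 targets, 0.64 for goblet and 0.66 for enterocyte, those of B + A 10 to B + A 0 -0.015 for G2 and mitosis, 0.035 for enterocyte progenitor and 0.018 for goblet, and those of B + A 10 to AOS 0 -0.052 for G2 and mitosis, 0.013 for S phase, 0.051 for stem cell, -0.072 for enterocyte progenitor, -0.0017 for p53 targets, 0.97 for T cell, 0.66 for goblet, 0.59 for Paneth and 0.71 for enterocyte. Scaled without ribosomal, mitochondrial and defensin genes, log2 ratios of B + A 0 to AOS 0 were -0.071 for G2 and mitosis, -0.14 for enterocyte progenitor and 0.60 for goblet, and those of B + A 10 to AOS 0 -0.10 for G2 and mitosis, -0.12 for enterocyte progenitor, 0.61 for goblet and 0.66 for enterocyte. Without the highest 5% of doublet scores, log2 ratios of B + A 0 to AOS 0 were 0.69 for goblet, those of B + A 10 to B + A 0 0.061 for goblet, and those of B + A 10 to AOS 0 0.76 for goblet and 0.57 for enterocyte. Without members high in T cell or goblet genes (chosen after seeing the data), log2 ratios of B + A 0 to AOS 0 were -0.12 for G2 and mitosis, 2.06 for T cell, 1.19 for goblet and 1.32 for Paneth, those of B + A 10 to B + A 0 0.13 for T cell and -0.15 for goblet, and those of B + A 10 to AOS 0 -0.17 for G2 and mitosis, 2.19 for T cell and 1.04 for goblet. For genes with at least 20 UMIs, the genes 2-fold or more different were 171 higher for B + A 0 to AOS 0, 189 lower for B + A 0 to AOS 0, 121 higher for B + A 10 to B + A 0, 131 lower for B + A 10 to B + A 0, 217 higher for B + A 10 to AOS 0 and 262 lower for B + A 10 to AOS 0. For genes with at least 200 UMIs, the genes 2-fold or more different were 28 higher for B + A 0 to AOS 0, 2 lower for B + A 0 to AOS 0, 2 higher for B + A 10 to B + A 0, 4 lower for B + A 10 to B + A 0, 28 higher for B + A 10 to AOS 0 and 7 lower for B + A 10 to AOS 0.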
